A study of Canis lupus familiaris with 3 samples.

Results

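FZD6 and FZD7 encode 2 of the Frizzled receptors, the membrane proteins that bind secreted Wnt ligands, and both genes had higher log2 ratios in E47 cells on all 3 arrays of the study. The members were the array spots whose single annotated gene symbol is FZD6 or FZD7. They came to 10 of 27648 spots, from 4 human cDNA clones, and to 2 of 5508 named genes that had a value on every array. All 10 spots had a value on all 3 arrays, so no spot of either gene was lost to the filter on empty spots. The pair was chosen with its ratios in this comparison known, so the values below describe both genes, no p-value is given for them, and the fit that chose them supports nothing here.

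The samples were MDCK cells, the epithelial cell line of canine kidney, transfected with E47, and the control was MDCK-CMV cells; both were kept in the same serum-containing medium. E47, a product of the TCF3 gene, is a DNA-binding protein of the basic helix-loop-helix class, and the series title ties it to repression of E-cadherin. Each array carried E47 and control RNA in opposite dyes, and the log2 ratio of the channels was the only value used, so the level of a gene in either cell population is not known. The 3 arrays were extraction 1 with E47 in Cy5, extraction 2 with E47 in Cy3 and extraction 2 with E47 in Cy5; the last 2 hold the same RNA and were combined into 1 mean, so n = 2 extractions. The labels do not say what drives E47 in these cells or whether the transfectants were 1 clone or a pool. They also do not say whether each extraction had its own culture, so the spread between them may be technical. Extraction 1 was measured only with E47 in Cy5, so every SD over extractions may also hold effects of dye and array. The labels number the cells MDCK-E47_1 and MDCK-E47_2, while the design text speaks of different extractions; if the numbers mark separate transfectants, the SD over extractions also holds the difference between those.

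A Frizzled receptor has an extracellular cysteine-rich domain that binds Wnt and a bundle of membrane-spanning helices that recruits Dishevelled in the cytoplasm. With the co-receptors LRP5 and LRP6 it can stabilise beta-catenin, and with other partners it can act on planar cell polarity or calcium signalling. FZD7 is best known for beta-catenin signalling in epithelial stem cells and in tumours. FZD6 is best known for planar polarity, for example in the orientation of hair follicles, and has been described as a brake on beta-catenin signalling. By sequence FZD7 is closest to FZD1 and FZD2, and FZD6 to FZD3. A human clone can also capture a related dog transcript, so these arrays do not fully separate the family.

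Ratios are stated as E47 over control. That direction is likely rather than given. The labels list E47 cells as the leading channel of every sample. The dye-swapped column correlated positively with the other columns (r = 0.58 and 0.65 over all spots). That correlation shows only that the columns share an orientation, not which one. CDH1, the gene of E-cadherin, was at −3.52, −3.83 and −3.47 on the 3 arrays, in the order above. TCF3 was at −0.27, −0.28 and −0.35; it is not known whether the spotted TCF3 clones contain the sequence that was transfected, so this checks nothing. At an adjusted p under 0.05 in limma, epithelial markers fell in 7 of 7 measured genes, with a median log2 ratio of −1.16. Of 7 measured mesenchymal markers 4 rose and none fell at that threshold, with a median of 0.68 and a range from −0.11 to 2.85. Among all named genes 3.85% fell and 5.34% rose. The lowest mesenchymal marker, ACTA2, was below 0 on every array without passing. The part of this shift in the Frizzled ratios was not tested, and fewer transcripts per cell cannot be told apart from fewer cells of a kind. Which log base was used is not given; it is read as 2, and a natural logarithm would raise each fold below.

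FZD6 gave nearly the same ratio from both of its clones. The gene was at 0.72 on the array of extraction 1, 0.90 on the Cy3 array and 0.67 on the Cy5 array of extraction 2. All 18 spot values lay above 0, between 0.45 and 1.01. The Cy3 array was the highest of the 3 and the Cy5 arrays lay close together. The mean was 0.75 ± 0.05 (SD, n = 2 extractions), which is 1.68-fold.

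Clone A of FZD6, printed as 1 pair of adjacent spots, was at 0.81, 0.91 and 0.73 on the 3 arrays. Clone B, printed as 2 such pairs at separate places, was at 0.67, 0.89 and 0.64. Clone A was therefore above clone B on every array, by 0.10 in the mean over extractions. On the Cy3 array the clones were nearly level, and 1 pair of clone B, at 0.92, lay above clone A. Among the 883 genes with exactly 2 clones the median gap between clones was 0.24, and 23.9% had a smaller gap than FZD6. Within clone B, the lower pair was at 0.59, 0.92 and 0.51 and the upper pair at 0.75, 0.86 and 0.77. On the Cy3 array the order of these pairs turned, so the pairs of clone B cannot be ranked. The mean of the lower pair was 0.65 ± 0.09 and that of the upper pair 0.78 ± 0.04 (SD, n = 2 extractions).

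FZD7 had a similar gene mean made of clones that stood apart. The gene was at 0.81 on the array of extraction 1, 0.67 on the Cy3 array and 0.81 on the Cy5 array of extraction 2. All 12 spot values were above 0, but they ran from 0.22 to 1.43, a wider span than for FZD6. The mean was 0.78 ± 0.05 (SD, n = 2 extractions), or 1.72-fold.

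Clone A of FZD7 was at 1.18, 0.88 and 1.37, with a mean of 1.15 ± 0.04 (SD, n = 2 extractions), which is 2.22-fold. Clone B was at 0.45, 0.47 and 0.25, with a mean of 0.40 ± 0.06 (SD, n = 2 extractions), or 1.32-fold. The lowest array of clone A lay above the highest array of clone B, so the clones did not overlap. Their gap of 0.75 was larger than that of 87.1% of the genes with 2 clones. Which part of the FZD7 transcript each clone covers, and how well it matches the dog sequence, was not used here. The SD of the gene mean is taken after averaging the clones and leaves their gap out, so the size of the FZD7 ratio rests on which clone is read.

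**Figure D1:**
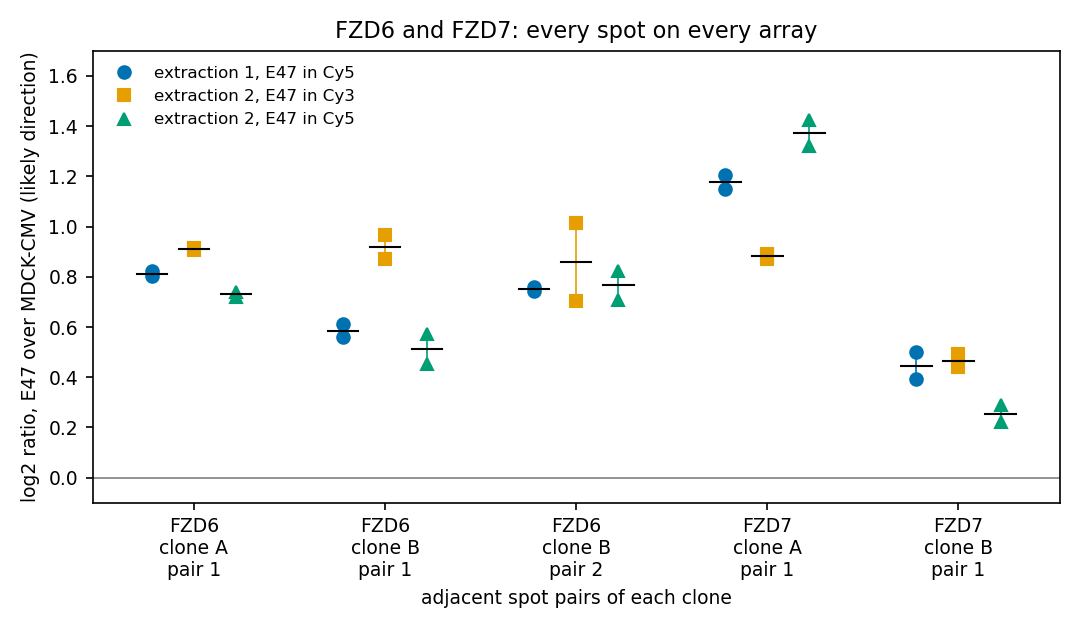
Log2 ratio (vertical axis) of each of the 10 spots of FZD6 and FZD7, grouped by clone and adjacent pair (horizontal axis); the shapes and colours stand for the 3 arrays, and black bars are the means of a pair. All FZD6 pairs lie between 0.51 and 0.92, while the FZD7 clones lie apart, at 0.88 to 1.37 and at 0.25 to 0.47.

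The median error of spotting was small beside these ratios. Adjacent spots of 1 clone differed by a median of 0.05 on both Cy5 arrays and 0.03 on the Cy3 array, over between 7890 and 8313 pairs. The 95th percentile was 0.29 on the array of extraction 1, and 0.12 on the Cy3 and 0.39 on the Cy5 array of extraction 2. That of the last array lay above the ratio of FZD7 clone B there, 0.25. The 5 pairs of FZD6 and FZD7 differed by 0.02 to 0.10 on the array of extraction 1 and by 0.02 to 0.12 on the Cy5 array of extraction 2. On the Cy3 array they differed by 0.0062 to 0.31, and the largest of these, in the upper pair of FZD6 clone B, lay above the 95th percentile of all pairs, 0.12. The spots of that pair were at 0.70 and 1.01, and those of the same pair on the other arrays at 0.74 and 0.76 and at 0.71 and 0.82.

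Within the dye swap, which holds 1 RNA in both orientations, the clones leaned opposite ways. FZD6 was higher with E47 in Cy3, by 0.18 for clone A and by 0.25 for clone B. FZD7 clone B was also higher with E47 in Cy3, by 0.21. FZD7 clone A was lower there, by 0.49 (log2 difference Cy3 minus Cy5 of −0.49). At the level of the gene the dye gap was 0.23 for FZD6 and 0.14 for FZD7, against a median of 0.17 over all named genes; 63.3% and 42.3% of genes had a smaller gap. The moderate gap of FZD7 is thus an average of clones with gaps of opposite sign.

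The arrays differed in spread, with an SD over named genes of 0.55, 0.43 and 0.48, and this bears on how far out each gene lay. FZD6 was 1.29, 2.10 and 1.41 array SDs above 0, and FZD7 1.47, 1.58 and 1.71. By rank from the top of 5508 named genes, FZD6 was at 331, 193 and 286, and FZD7 at 261, 331 and 202. On the mean over extractions they took ranks 254 and 240. Both genes were therefore in the upper tail of every array without being among the most changed genes, and neither was above the other on all 3 arrays. In the fit across all features, from which the pair was chosen, both passed as higher; 5.34% of named genes did so, and nothing further is read from that.

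**Figure D2:**
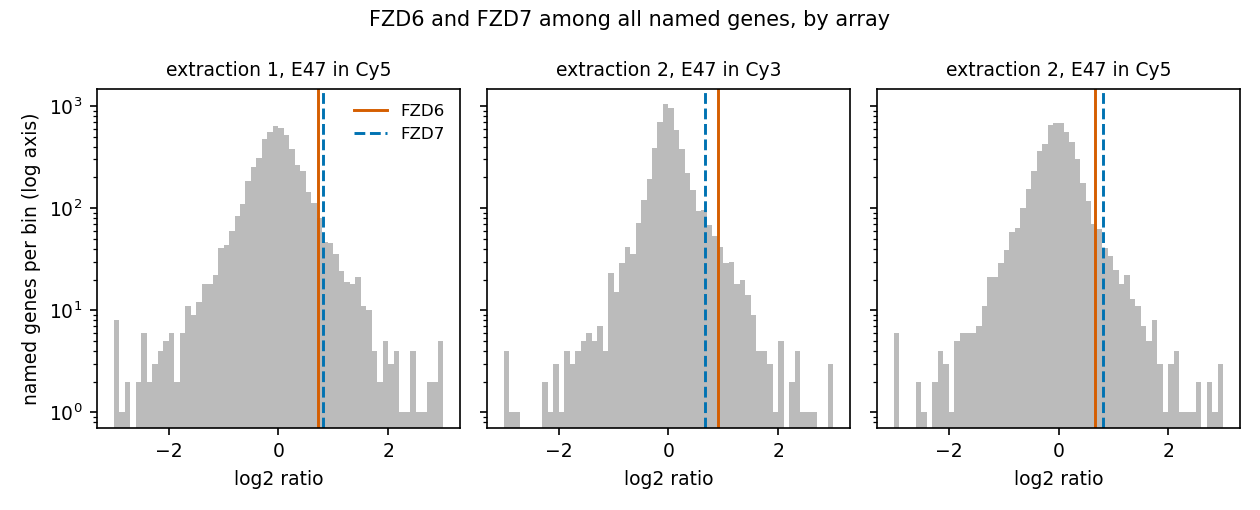
Histograms of the log2 ratio (horizontal axis, bins of equal width, with genes beyond the axis placed in the end bins) of 5508 named genes on each array, with counts on a log axis; lines mark FZD6 (solid) and FZD7 (dashed). Both lines lie in the upper tail on every array, with FZD7 above FZD6 on the Cy5 arrays and below it on the Cy3 array.

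The other Frizzled receptors lay near 0 or below it. Besides the pair, 7 Frizzled genes had a value on every array, FZD1, FZD2, FZD4, FZD5, FZD8, FZD9 and FZD10. None of the 7 had an adjusted p under 0.05 in limma. Of all named genes 9.19% did, so no call among 7 genes lay near the background. At an unadjusted p under 0.05, limma gave FZD5 and FZD9, both lower, against 18.2% lower and 17.4% higher of all named genes. In order of the mean, FZD7 and FZD6 came highest and their array ranges overlapped each other. The lowest FZD6 array, 0.67, lay above the highest array of the next gene, FZD1, at 0.43. The pair was chosen with these ratios known, so its place at the top and this separation are no independent finding. Read by clone, FZD7 clone B, at 0.25 to 0.47, overlapped FZD1. From FZD1 down to FZD5 each neighbour in the order overlapped the next in its array range.

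FZD1 and FZD2, the nearest relatives of FZD7, had 1 clone each. FZD1, which can signal through beta-catenin, was at 0.03, 0.34 and 0.43 on the 3 arrays, with a mean of 0.21 ± 0.25 (SD, n = 2 extractions) and an adjusted p of 0.303 in limma. Its value rested on extraction 2, since extraction 1 gave almost no difference. FZD2 was at −0.01, −0.11 and 0.27, with a mean of 0.03 and an adjusted p of 0.798 in limma. Its arrays lay on both sides of 0. FZD1 at its highest array lay within the range of FZD7 clone B and below every array of FZD7 clone A.

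FZD5, a receptor of intestinal and ocular epithelia, had the lowest mean of the family. Its single clone, printed as 4 spots, was at −0.77, −0.43 and −0.53, below 0 on every array, with a mean of −0.62 ± 0.21 (SD, n = 2 extractions). The adjusted p was 0.0629 in limma, so FZD5 did not pass. It did pass with some other settings of the fit and missed the threshold in 7 of 11. FZD9 was at −0.52, −0.12 and −0.30 from 6 spots of 1 clone, with an adjusted p of 0.136 in limma.

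FZD4, the Norrin and Wnt receptor of retinal vessels, was split between its clones like FZD7, but across 0. Clones A and B had means of 0.18 and 0.19, and clone C a mean of −0.46, with all 3 of its arrays below 0. The gene mean of −0.03 therefore describes none of its clones. It came from 6 of 8 spots, and was −0.22 when incompletely measured spots were kept. FZD8 was at 0.12, −0.02 and −0.09 and FZD10, from 1 spot, at 0.05, −0.24 and −0.31. SMO, the Frizzled-class transducer of Hedgehog signalling, was at −0.27, −0.14 and −0.15, with an adjusted p of 0.202 in limma.

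**Figure D3:**
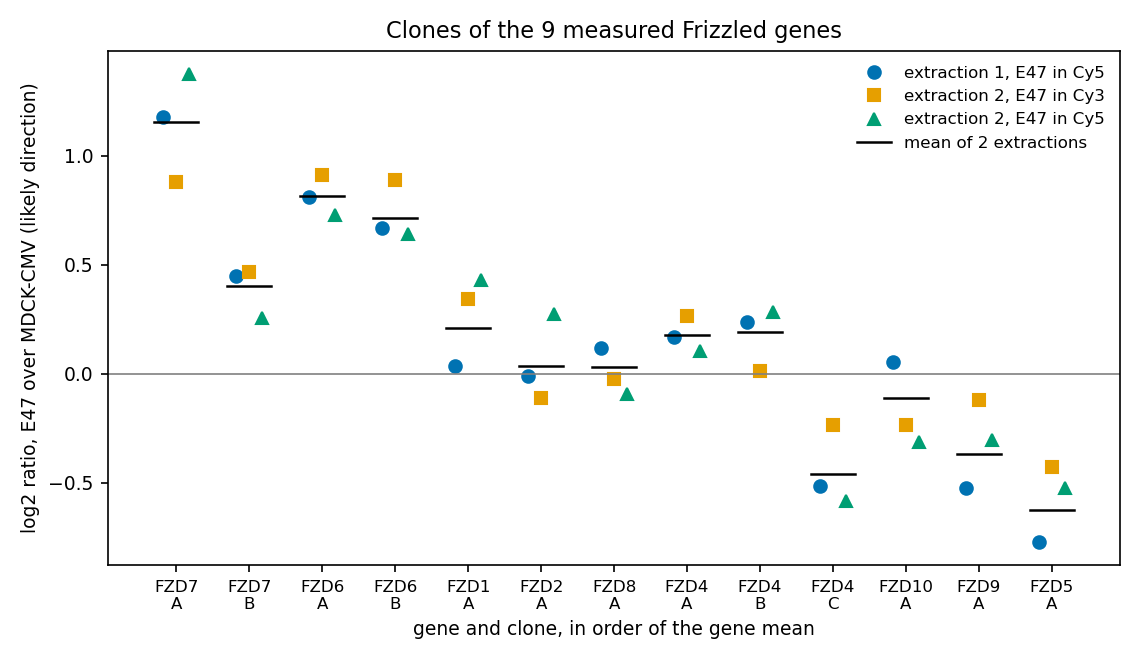
Log2 ratio (vertical axis) on each array for every clone of the 9 measured Frizzled genes, in order of the gene mean (horizontal axis); shapes and colours stand for the 3 arrays and bars for the mean of 2 extractions. FZD7 and FZD6 clones lie above 0 on all arrays, the FZD5 clone lies below 0 between −0.77 and −0.43, and FZD4 has clones on both sides of 0.

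The rest of the Wnt pathway was taken from a list of ligands, receptors, antagonists, cytoplasmic and nuclear transducers, targets and genes of the planar polarity and calcium branches. Of 179 listed genes other than the pair, 104 had a value on every array. In limma at an adjusted p under 0.05, 5 of these rose (4.81%) and 4 fell (3.85%), and 95 did not pass. Among all named genes 5.34% rose and 3.85% fell, together 9.19% against 8.65% in the list, so the shares in the list lay near the background. The median log2 ratio of the 104 genes was −0.08, against −0.02 over all named genes. All 3 arrays were above 0 for 31 of the 104 and below 0 for 48 of the 104. Over all named genes the shares were 30.6% and 32.8%. The share below 0 was thus larger in the list than over all named genes, which was not tested. No gene passed in 6 of the role lists, those of ligands, Frizzled-class receptors, co-receptors, secreted antagonists, membrane antagonists, and beta-catenin with its nuclear partners. At an unadjusted p under 0.05, limma gave 2 higher (4.88%) and 9 lower (21.95%) among the 41 genes of these lists, against 17.4% higher and 18.2% lower of all named genes. These lists were grouped because no gene in them passed, which holds their shares down in advance. The difference from all named genes is therefore not read further.

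Among the ligands, WNT4 and WNT5A differed widely between arrays. WNT4, a ligand of kidney tubule formation, had the largest mean of the list of ligands in either direction, at −1.36 ± 1.12 (SD, n = 2 extractions), with an adjusted p of 0.131 in limma. It was at −2.15, −0.10 and −1.04 on the 3 arrays. WNT5A, a ligand mainly of the branches without beta-catenin, was chosen after its value was seen. It was at 1.95, 0.64 and 0.88, above 0 on every array, with a mean of 1.36 ± 0.84 (SD, n = 2 extractions) and an adjusted p of 0.0924 in limma. For both ligands the array of extraction 1 was farthest from 0 and the Cy3 array nearest, so the size of neither ratio is settled by these arrays.

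Among co-receptors and antagonists the ratios were small or uneven. LRP5, the co-receptor for beta-catenin signalling, was at −0.59, −0.21 and −0.30, with an adjusted p of 0.117 in limma. ROR1, a receptor tyrosine kinase for WNT5A, was at −1.09 on the array of extraction 1 and at −0.0019 and 2.5e-04 on the arrays of extraction 2. Its mean of −0.55 therefore came from 1 array. SFRP2, a secreted relative of the Frizzled ligand-binding domain, was at −0.30, −0.25 and −0.90, with an adjusted p of 0.101 in limma. SFRP4 was at 0.08, 0.12 and 0.11. FRZB, another secreted Frizzled-related protein, had 4 clones with means from −0.58 to 0.13. RNF43, a ubiquitin ligase that removes Frizzled receptors from the membrane, was at −0.0038, −0.07 and 0.18, and thus showed no common sign.

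Inside the cell, CSNK2B, the regulatory subunit of casein kinase 2, fell. It was at −0.79, −0.69 and −0.89 on the 3 arrays, with a mean of −0.79 ± 0.08 (moderated SE, n = 2) and an adjusted p of 0.0283 in limma. The other 19 of 20 genes of the Dishevelled and destruction complex list did not pass. The share that fell, 5.0%, lay near the 3.85% of all named genes. In 14 of the 20 every array gave a value below 0, which held for 32.8% of all named genes. CSNK1E, a casein kinase 1 that acts on Dishevelled, was chosen after its value was seen. It had the largest mean of the 104 genes in either direction, −1.44 ± 1.46 (SD, n = 2 extractions), with −2.47, −0.19 and −0.61 on the 3 arrays and an adjusted p of 0.171 in limma. As for WNT4 and ROR1, the array of extraction 1 was farthest from 0. CTNNB1, which encodes beta-catenin, was at 0.41, 0.54 and 0.34, with an adjusted p of 0.0712 in limma. Its transcript ratio says nothing of the stability of the protein, through which the pathway acts.

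Of 18 measured genes listed as targets of beta-catenin signalling, 4 rose (22.2%) and 1 fell (5.56%), against 5.34% and 3.85% of all named genes, with a list median of −0.07. TWIST1, a helix-loop-helix factor, was at 1.44, 0.85 and 1.24. ID2, an inhibitor that binds E proteins such as E47 directly, was at 1.27, 0.87 and 0.90. Its 3 clones had means from 0.67 to 1.83, so the size of the ID2 ratio depends on the clone. The hyaluronan receptor CD44 was at 1.02, 0.85 and 0.93 and the growth factor BMP4 at 0.53, 0.72 and 0.51. CCND2, cyclin D2, fell, with −1.50, −0.83 and −1.22. In limma the adjusted p-value lay between 0.0247 and 0.0478 for these 5 genes. TWIST1, ID2 and CD44 were known to be higher when the list was drawn up, so their count is not independent evidence. MYC and CCND1, 2 of the most cited targets of the pathway and chosen after their values were seen, were at 0.28 and 0.16 in the mean, with adjusted p-values of 0.125 and 0.257 in limma.

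In the planar polarity and calcium branches, to which FZD6 is usually assigned, 1 of 25 measured genes rose (4.0%) and 2 fell (8.0%), against 5.34% and 3.85% of all named genes. The related kinases MAPK8 and MAPK9, known as JNK1 and JNK2, passed in opposite directions. MAPK8 was at −0.93, −0.86 and −0.90, with an adjusted p of 0.0247 in limma. MAPK9 was at 0.58, 0.88 and 0.53, with an adjusted p of 0.0416 in limma. CAMK2D, a calcium-dependent kinase measured by 1 spot, was at −0.62, −0.52 and −0.9998, with an adjusted p of 0.0393 in limma. VANGL1, a core membrane protein of planar polarity, also chosen with its value known, was at 0.06, 0.14 and 0.12, with an adjusted p of 0.469 in limma.

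The calls depended on 1 array, in the pathway and among all named genes. Without the Cy5 array of extraction 2 none of the 104 genes passed, with a lowest adjusted p of 0.0584 in limma. Of all 5508 named genes 74 then rose and 35 fell, against 294 and 212 in the fit reported. At an unadjusted p under 0.05, limma gave 8 higher and 13 lower of the 104, against 11 and 24 in the fit reported. In the fit reported, 17.4% of all named genes were higher and 18.2% lower at this threshold. These shares of all named genes were not computed without that array. The ratios themselves moved little: MAPK8 was then at −0.90, CD44 at 0.94, ID2 at 1.07, MAPK9 at 0.73 and BMP4 at 0.63, and among the 9 genes the largest move was that of CAMK2D, by 0.12 to −0.57. FZD6 was then at 0.81 and FZD7 at 0.74. With arrays brought to 1 scale BMP4, MAPK9 and CAMK2D also missed the threshold, at ratios of 0.58, 0.66 and −0.65 and adjusted p-values of 0.0675, 0.0669 and 0.0615 in limma. BMP4 missed it as well, at an unchanged ratio of 0.57 and an adjusted p of 0.0506 in limma, when incompletely measured spots were kept.

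**Figure D4:**
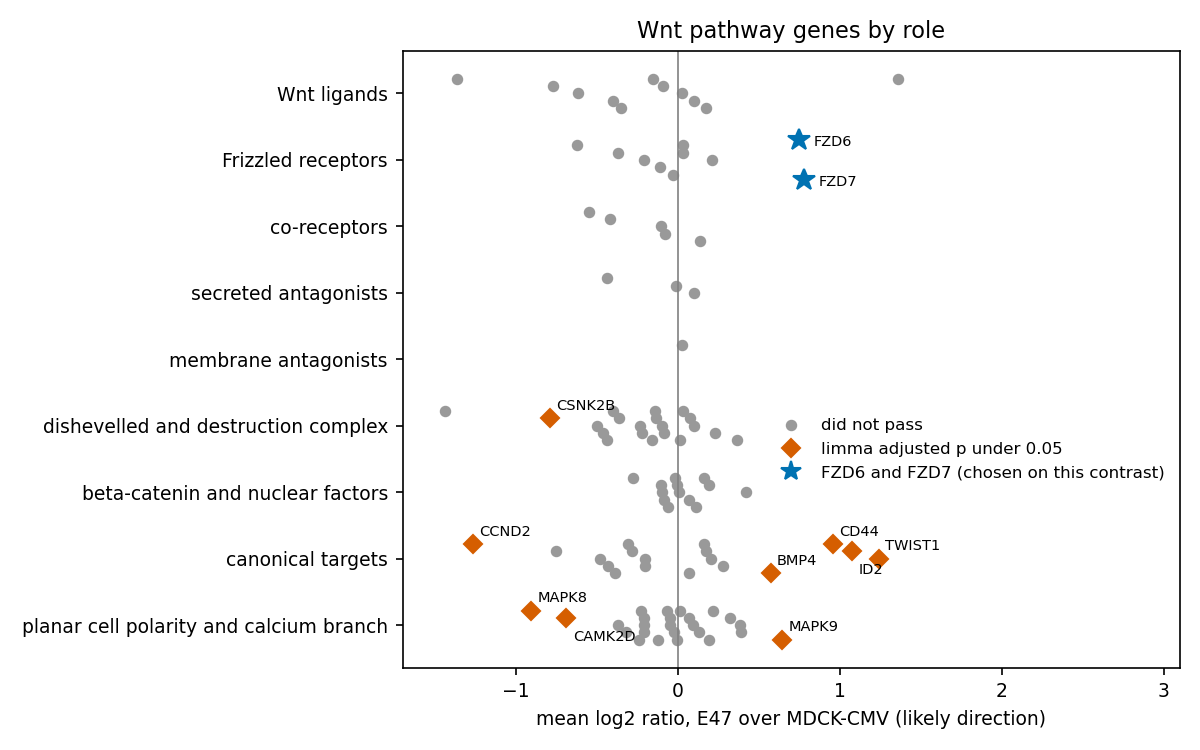
Mean log2 ratio over 2 extractions (horizontal axis) of 104 Wnt pathway genes by role (vertical axis, small vertical shifts only separate the points); diamonds mark genes with a limma adjusted p under 0.05 and stars mark FZD6 and FZD7, which were chosen on this contrast. Of the 9 diamonds 8 belong to targets or to the planar polarity and calcium branches, and in the rows of Frizzled receptors and co-receptors no gene other than the pair lies above 0.21.

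The genes whose ratios were most like those of each receptor were found by Euclidean distance over the 3 array log2 ratios, as a description over 3 arrays that share 1 RNA in 2 of them. For FZD6 the 5 nearest of all named genes were SIRPA, a membrane receptor for CD47, AK4P3, SSU72, PLEKHA3 and RSRC2, with distances from 0.04 to 0.09. SIRPA was at 0.75, 0.87 and 0.67, and so had the high Cy3 value of FZD6. For FZD7 they were AMOT, which encodes angiomotin, CUL4B, a cullin scaffold of ubiquitin ligases, ZNG1E, the ribosomal protein gene RPL30 and the ubiquitin ligase NEDD4, with distances from 0.06 to 0.11. AMOT, measured by 1 spot, was at 0.80, 0.70 and 0.76. AK4P3 and ZNG1E are symbols of the platform annotation, and such clones can bind transcripts of related genes. The receptors were not close neighbours of each other: FZD7 was the gene at place 77 from FZD6, and FZD6 the gene at place 64 from FZD7, at a distance of 0.28. Since the FZD7 values average clones that stood apart, its neighbours match neither clone.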

How the data were processed

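The values were log2 ratios as deposited by the authors, 1 column for each of 3 two-colour arrays; how the authors corrected background and normalized, and which log base and direction they used, is not stated in the labels or the file header. No sign was turned. Spots carried platform symbols: 17488 of 27648 had 1 symbol, 654 several and 9506 none. Of the 5508 named genes, 5027 were also found by symbol among dog RefSeq genes (assembly UU_Cfam_GSD_1.0, used for names only), all 9 Frizzled genes included.

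The 23275 spots measured on every array were averaged per symbol, and other spots were kept singly. The dye swap was averaged, leaving 2 extractions and 1 residual degree of freedom. The test of each ratio against 0 used limma (version 3.58.1, R 4.3.3; lmFit, then eBayes), adjusted over 14008 features by Benjamini-Hochberg with a threshold of 0.05; the script was tested on simulated data. Control RNA served as the reference on every array, so the variation between control samples may be missing from the p-values. It is missing if all arrays shared the same control preparation, which is not known here. The number of arrays limits the precision. Clones are lettered in array order. Array signals were not used here, so no dim spots were removed.

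Named were the pair, the measured Frizzled, SFRP and LRP5 or LRP6 genes, all Wnt genes that passed or else the 1 with the largest mean of a role, the 5 nearest genes, and CDH1 and TCF3; WNT5A, CSNK1E, MYC, CCND1 and VANGL1 were added with their values known. The members and lists were chosen with earlier results of these data known. Figures were drawn with matplotlib 3.10.9.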

Additional observations from a re-analysis of the deposited data

How the results depend on the processing

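FZD6 and FZD7 stayed above 0 in all settings tried. FZD6 moved by more than its SD to 0.69 without the Cy3 array of extraction 2, to 0.81 without the Cy5 array, and to 1.08 when the values were read as natural logarithms, which put FZD7 at 1.12. With 1 extraction alone FZD6 was between 0.72 and 0.78 and FZD7 between 0.74 and 0.81. Weighting clones equally, a choice made after seeing the data, gave 0.77 and 0.78. The median of the Wnt list stayed below 0: −0.0727 with 3 arrays as replicates, −0.0704 with scaled arrays, −0.0720 with the median over spots, −0.117 as natural logarithms, −0.103 without the Cy3 array, −0.0563 without the Cy5 array, and −0.0608 to −0.0491 with 1 extraction. Wnt genes that rose numbered 5 in the fit reported, 3 with scaled arrays, 8 with spots tested singly and 0 without the Cy5 array. Those that fell numbered 4, against 11 with 3 arrays as replicates, 9 with spots tested singly, 15 with named genes only, 8 without the Cy3 array and 0 without the Cy5 array. Among all named genes 294 rose and 212 fell. These became 560 and 448 with 3 arrays as replicates, 508 and 431 with spots tested singly, 624 and 551 with named genes only, 448 and 471 without the Cy3 array, and 74 and 35 without the Cy5 array; the cause was not tested. Each ratio already pairs E47 with control RNA within an array. No further pairing was possible because all samples belong to 1 group. Signal over background is not known, so a limit from dim spots cannot be given.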
